A study of Mus musculus with 17 samples.

Results

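The 39 genes described here pattern the embryonic brain into regions: 21 of the forebrain, 10 of the midbrain and hindbrain, and 8 of the dorsal neural tube. They were taken from a list of homeobox, Pax and related genes of these regions, in which Fgf8 is the one secreted signal. All 39 were among the 50600 genes listed per library, and all 39 had enough reads to be tested. The comparison covered 5 groups of libraries, all from C57BL/6J mice. The tumors lacked Smarcb1 (genotype SMARCB1 -/-), which encodes a subunit of the nucleosome remodeller SWI/SNF and whose loss defines rhabdoid tumors. They were CNS tumors of an SHH subtype (n = 3) and of a Myc subtype (n = 4), syngeneic grafts of tumor grown in the flank (n = 3) and extracranial tumors (n = 4). They were set against healthy brain of WT mice (n = 3). Age, the allele and driver used to delete Smarcb1, the organ of each extracranial tumor and the tumor that gave rise to each graft are not given in the sources used here.

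Patterning genes give each part of the neural tube its identity. Signals from a few organising centres, among them Fgf8 from the isthmus between midbrain and hindbrain, switch on sets of homeobox and Pax factors, which then repress the factors of neighbouring regions. Emx1, Lhx2, Tbr1 and Fezf2 belong to the cortex, Dlx genes and Nkx2-1 to the ventral forebrain, En1, En2 and Pax5 to the midbrain and its border with the hindbrain, and Pax3, Pax7, Msx3 and Zic genes to the dorsal neural tube. Several act outside the brain too: Pax5 in B cells, Egr2 in Schwann cells and macrophages, Eomes in T and NK cells, Nkx2-1 in thyroid and lung, and Zic, Pax3 and Irx genes in embryonic mesoderm or limb.

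The sequences upstream of the start of 4 members are shown because these genes stand for the patterns below: Msx3 was high in SHH tumors, Nkx2-1 was near 0 in the other tumors, Eomes was high in grafts, and En1 was measured at 1 CPM or more in every library. They come from RefSeq on the build GRCm38.p6 and run 5′ to 3′ in the direction of the gene, up to the start or to the first annotated exon base. Msx3 is chr7:140049090-140049338 on the minus strand, Nkx2-1 chr12:56536909-56537158 on the minus strand, Eomes chr9:118477939-118478188 on the plus strand and En1 chr1:120602237-120602417 on the plus strand. Capitals mark every match, on either strand, to the box CCAAT, the TATA box searched as TATAAA, the E-box CACGTG and the homeobox core site TAATTA, so that a box of the first kind on the other strand appears as ATTGG and one of the second as TTTATA. No matches overlapped.
Msx3: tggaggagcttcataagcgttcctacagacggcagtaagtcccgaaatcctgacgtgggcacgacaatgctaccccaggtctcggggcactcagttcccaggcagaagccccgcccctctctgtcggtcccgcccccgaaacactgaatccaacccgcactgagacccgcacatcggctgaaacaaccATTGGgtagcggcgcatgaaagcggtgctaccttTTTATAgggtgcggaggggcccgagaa
Nkx2-1: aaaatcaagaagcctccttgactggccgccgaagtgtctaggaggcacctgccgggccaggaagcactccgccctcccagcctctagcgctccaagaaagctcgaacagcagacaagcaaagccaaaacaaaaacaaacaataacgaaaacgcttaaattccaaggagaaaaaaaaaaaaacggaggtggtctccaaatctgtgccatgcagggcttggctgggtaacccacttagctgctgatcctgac
Eomes: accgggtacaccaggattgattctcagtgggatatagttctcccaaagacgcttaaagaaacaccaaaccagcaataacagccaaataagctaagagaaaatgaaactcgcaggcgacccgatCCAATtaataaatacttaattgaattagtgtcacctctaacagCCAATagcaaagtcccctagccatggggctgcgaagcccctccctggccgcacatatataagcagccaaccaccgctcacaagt
En1: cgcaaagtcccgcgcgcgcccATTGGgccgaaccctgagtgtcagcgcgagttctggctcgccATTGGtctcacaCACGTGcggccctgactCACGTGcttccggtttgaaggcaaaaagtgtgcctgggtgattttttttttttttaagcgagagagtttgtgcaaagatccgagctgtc
A window of 250 bases upstream was on hand for 30 of the 39 members and for 32851 starts in all. CACGTG, the E-box bound by Myc with its partner Max, lay in 6.02% of all windows and in those of 6 members (Dlx2, Egr2, En1, Gbx2, Gsx2 and Zic1), and En1 held it at 2 places. CCAAT lay in 33.8% of all windows and in those of 16 members, among them Msx3, Eomes and En1. TATAAA lay in 12.4% of all windows and in those of Gsx2, Msx3 and Otx2, and TAATTA, the core site of many homeobox factors, in 4.84% and in those of Otx2 and Tbr1. Nkx2-1 held none of these letters. A match describes the letters only and is not a binding site.

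The total count of a library was 35662656 to 71390917 for SHH tumors, 18685672 to 114338058 for Myc tumors, 36951431 to 96214427 for grafts, 22491998 to 52956537 for extracranial tumors and 103095016 to 130835711 for brains. Values are CPM (counts scaled to a common library total) on library sizes scaled by TMM, log2 fold changes are given ± SE, and a gene is called at an adjusted p under 0.05 from the edgeR quasi-likelihood test over all 21494 genes tested. Smarcb1, the targeted gene, was at 2.52 to 33.3 CPM across SHH tumors, 7.87 to 14.8 across Myc tumors, 25.1 to 31.1 across grafts and 7.25 to 23 across extracranial tumors, against 119 to 132 across brains, and was called lower in all 4. The sum of 6 neuron markers was 375 to 2932 CPM for SHH tumors, 89.6 to 438 for Myc tumors, 142 to 207 for grafts, 37.3 to 439.5 for extracranial tumors and 4424 to 5238 for brains. Markers of neural progenitors were at 1118 to 1488, 164 to 717, 30.4 to 417, 50.6 to 336 and 1041 to 1077 CPM in the same order. Outside SHH tumors and brains, most of this sum was the marker Nes, except in Myc CNS tumor 1 and Extracranial tumor 3. Myc CNS tumor 2 held 13691 reads of Nes, 2 of Sox2 and 0 of Sox1. Of the 6 markers, 4 were called lower than brain in Myc tumors, 5 in grafts and 4 in extracranial tumors (26.8%, 30.4% and 26.1% of all genes). The brains held 122392, 165578 and 171916 reads of the neuron marker Dcx. Of the oligodendrocyte marker Mobp they held 28, 10 and 5. As age is not given, each change from brain below is relative to these brains and not to adult brain. Markers of another tissue or of 1 cell type stood out in a few libraries. The 6 summed pituitary markers were at 1363 CPM in Healthy brain 1 against 0.980 and 1.09 in the other brains. Its muscle markers summed to 184 CPM against 4.84 and 4.82, and its mesenchyme markers to 2285 CPM against 454 and 326. SHH CNS tumor 1 had 9289 CPM of oligodendrocyte markers against 77.8 and 195 in the other SHH tumors and 84.5 to 107 in brains. Both libraries count below among the 5 with transcripts of other tissue, although oligodendrocytes are brain cells. In bulk tissue, fewer cells of a type and less RNA per cell cannot be told apart.

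The brains held the broadest set of patterning genes. Between 24 and 30 of the 39 genes reached 1 CPM in each SHH tumor, 13 to 19 in each Myc tumor, 14 to 17 in each graft and 8 to 16 in each extracranial tumor, against 32 to 35 in each brain. Of the 21 forebrain genes, 14 to 17 reached 1 CPM in SHH tumors, 6 to 10 in Myc tumors, 7 in each graft, 3 to 10 in extracranial tumors and 18 to 21 in brains. En1, a homeobox factor of the midbrain and anterior hindbrain, was the one member at 1 CPM or more in all 17 libraries. Emx1, Rax and Pax8 were under 1 CPM in all 14 tumors.

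**Figure D1:**
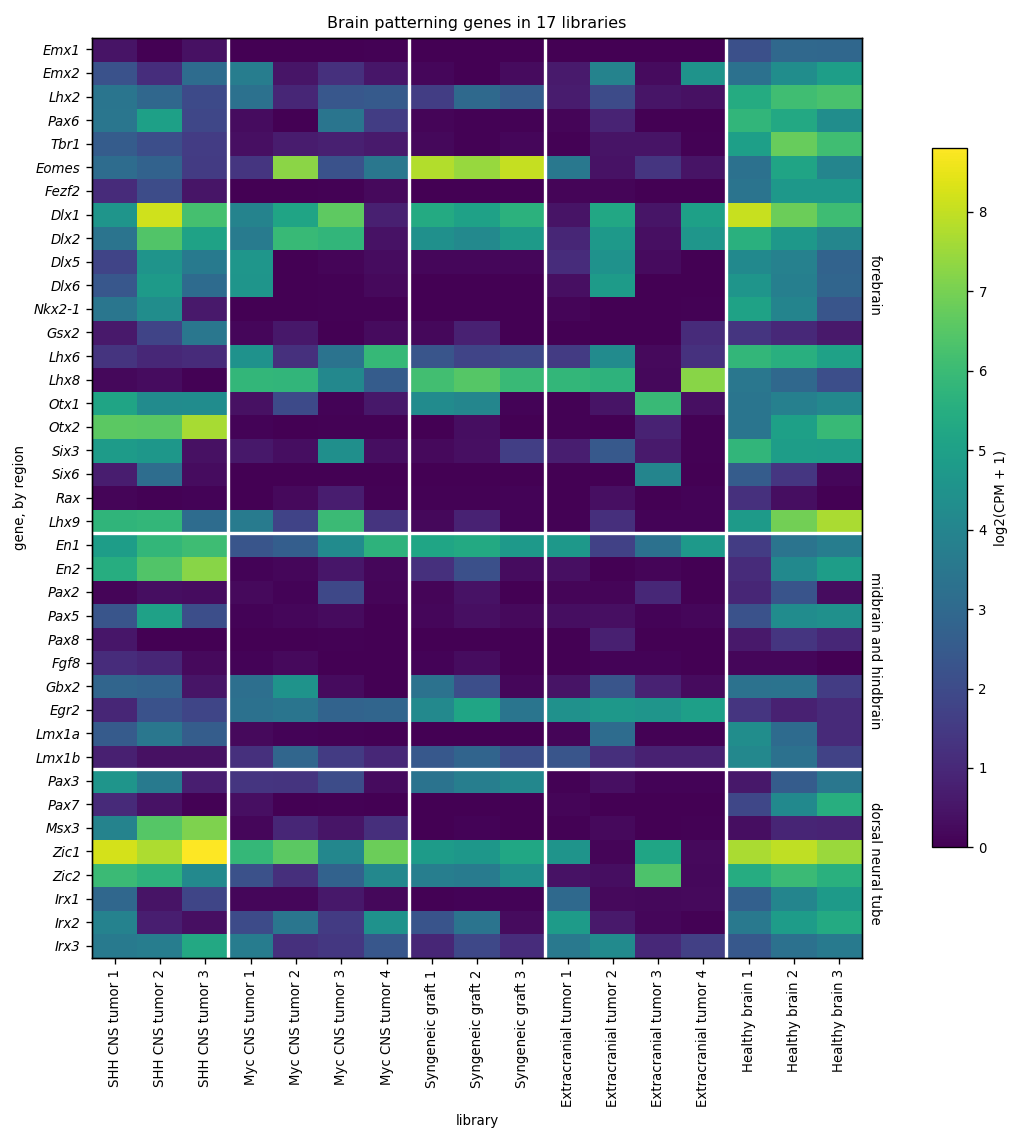
Levels of the 39 patterning genes (rows, by region) in the 17 libraries (columns, by group), as log2(CPM + 1). SHH tumors and brains fill most rows, while in the other tumors most rows are dark apart from single bright genes such as Eomes in the 3 grafts.

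Read per kb of exon, which allows genes to be compared with each other, Zic1 led in SHH tumors and brains, Lhx8 in Myc and extracranial tumors, and Eomes in grafts. In SHH tumors Zic1 had a mean of 55.9 ± 21.1 CPM per kb, before Msx3 with 34.0 ± 26.3, Otx2 with 30.4 ± 14.5 and En2 with 26.2 ± 15.1 (SD, n = 3). In Myc tumors Lhx8 had 13.1 ± 10.4 CPM per kb, before Zic1 with 12.4 ± 7.62 (n = 4). In grafts Eomes had 52.9 ± 10.8 and Lhx8 29.2 ± 5.52 CPM per kb (n = 3). In extracranial tumors Lhx8 had 25.6 ± 24.8 and Egr2 7.33 ± 1.15 CPM per kb (n = 4). In brains Zic1 had 37.0 ± 6.40, Dlx1 27.6 ± 19.3 and Zic2 17.8 ± 3.82 CPM per kb (n = 3). Among the neighbours in these orders, Eomes and Lhx8 in grafts were apart in every library, and in the other groups the ranges of SD around neighbouring means overlapped.

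Against brain, fewer members, and far fewer of all genes, were called in SHH tumors than in the other tumors. Set beside the share of all genes, the count of members called lower was near it in Myc tumors. In SHH tumors, grafts and extracranial tumors it was above that share, and this excess was not tested. In SHH tumors 1 member was called higher and 4 lower, where 2.44% and 1.94% of all genes were called higher and lower. Without SHH CNS tumor 3, Healthy brain 2 or Healthy brain 3 no call was left in SHH tumors (0 higher and 0 lower), and without any 1 of the others 1 or 2 lower calls were. Over all genes, 97 were called higher and 45 lower without SHH CNS tumor 3. Without Healthy brain 2 these were 54 and 59, and without Healthy brain 3 they were 27 and 35. In Myc tumors it was 1 higher and 12 lower (25.3% and 26.8% of all genes), in grafts 2 higher and 20 lower (24.9% and 30.4%), and in extracranial tumors 2 higher and 17 lower (26.1% and 26.1%). The higher count was 1 without any 1 library in grafts, and 1 without any 1 library but Extracranial tumor 3 in extracranial tumors. All libraries lay above all brains for 6 members and below them for 12 in SHH tumors (15.7% and 20.7% of all genes), for 1 and 19 in Myc tumors (25.2% and 30.7%), for 4 and 25 in grafts (34.5% and 40.5%) and for 1 and 17 in extracranial tumors (24.8% and 29.6%). The median log2 fold change of the 39 genes was -0.68 in SHH tumors, -2.42 in Myc tumors, -3.73 in grafts and -2.50 in extracranial tumors, beside -0.02, -0.01, -0.16 and 0.05 over all genes. The median was not altered by setting genes without counts in a group at the bound that 3 counts allow. The 4 comparisons share the 3 brain libraries, so they are not independent of each other. By region, grafts had 13 of 21 forebrain genes, 4 of 10 midbrain and hindbrain genes and 3 of 8 dorsal neural tube genes called lower, Myc tumors 6, 4 and 2, extracranial tumors 10, 3 and 4, and SHH tumors 2, 1 and 1.

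**Figure D2:**
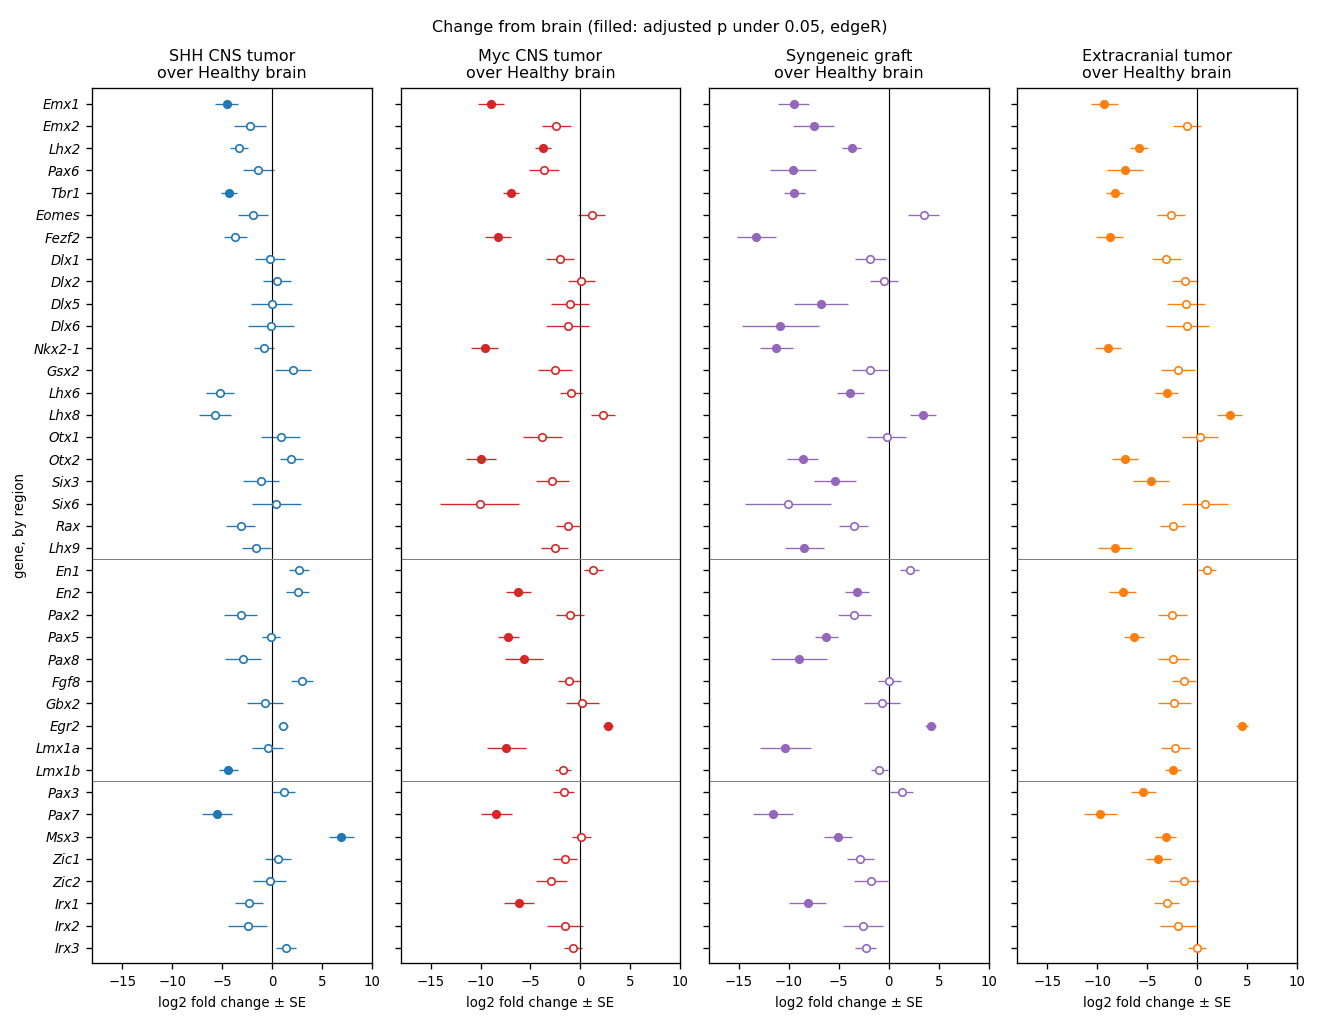
Log2 fold change over Healthy brain (x axis, bars show the SE) of the 39 genes (y axis, by region) in the 4 tumor groups, with filled points for an adjusted p under 0.05. Emx1, Tbr1 and Pax7 are filled left of 0 in all 4 panels, and Egr2 is filled right of 0 in the Myc, graft and extracranial panels.

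Cortical genes were called lower in every group of tumors, though in SHH tumors no call held in every alternative. Of the 7 genes of the dorsal telencephalon, 2 were called lower in SHH tumors, 4 in Myc tumors, 6 in grafts and 5 in extracranial tumors. Of all genes, 1.94%, 26.8%, 30.4% and 26.1% were called lower in the same order. None of the 7 was called higher than in brain. Tbr1, a T-box factor of young deep-layer cortical neurons, was at 4.87, 3.34 and 1.97 CPM in SHH tumors, 0.273, 0.574, 0.725 and 0.568 in Myc tumors, 0.141, 0.0369 and 0.115 in grafts and 0.0488, 0.389, 0.388 and 0.0340 in extracranial tumors, against 30.6, 109 and 67.3 in brains. Every tumor library was below every brain, and SHH tumors stood between the other tumors and brain without overlap. Tbr1 fell in SHH tumors (log2 fold change -4.34 ± 0.80, adjusted p = 0.0127), Myc tumors (-6.98 ± 0.80, adjusted p = 1.69e-05), grafts (-9.45 ± 1.02, adjusted p = 8.83e-06) and extracranial tumors (-8.24 ± 0.85, adjusted p = 7.49e-06). The first of these was lost without SHH CNS tumor 3, Healthy brain 2 or Healthy brain 3 (adjusted p up to 0.0684). SHH tumors were higher than Myc tumors (2.63 ± 0.68, adjusted p = 0.00744).

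Emx1, a homeobox factor of the developing cortex, was at 0.386, 0 and 0.328 CPM in SHH tumors against 3.41, 6.90 and 6.74 in brains, with a log2 fold change of -4.55 ± 1.12, adjusted p = 0.0378, a call lost in 11 of 14 alternatives. The other tumors held 4 reads of it in all: 2 in Myc tumors, 1 in grafts and 1 in extracranial tumors. Brain was above Myc tumors by a ratio of 622 (95% counting interval 172 to 5138), above grafts by 1055 (189 to 41661) and above extracranial tumors by 766 (138 to 30269), and each of these falls was called (highest adjusted p = 0.00017). Fezf2, which specifies deep-layer projection neurons, was at 1.11, 3.15 and 0.408 CPM in SHH tumors, 0, 0, 0.0262 and 0.179 in Myc tumors, 0 in all grafts and 0.0976, 0.0778, 0 and 0 in extracranial tumors, against 9.57, 24.9 and 25 in brains. Grafts were at least 1226-fold lower than brain, from the floor of 3 counts over the grafts, and Fezf2 also fell in Myc tumors (-8.24 ± 1.30, adjusted p = 0.000291) and extracranial tumors (-8.78 ± 1.36, adjusted p = 0.000237). In SHH tumors its change of -3.67 ± 1.18 was not called (adjusted p = 0.0945).

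Lhx2, a LIM-homeobox selector of cortical identity, kept a low level. It was at 9.66, 6.63 and 2.98 CPM in SHH tumors, 8.86, 0.939, 4.26 and 4.60 in Myc tumors, 2.0, 7.13 and 4.94 in grafts and 0.585, 3.04, 0.418 and 0.306 in extracranial tumors, against 41.9, 68.3 and 77.2 in brains. All 14 tumors were below all brains. It fell in Myc tumors (-3.74 ± 0.84, adjusted p = 0.00217), grafts (-3.73 ± 0.94, adjusted p = 0.00416) and extracranial tumors (-5.82 ± 0.92, adjusted p = 0.000166), while the change of -3.28 ± 0.92 in SHH tumors missed the threshold (adjusted p = 0.0571). The fall of these cortical genes went with the lower neuron marker sums given above, and the part of neuron content in it was not tested.

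Emx2 and Pax6, which divide the cortex along its axes, differed from library to library. Pax6 was at 9.94, 31.1 and 2.63 CPM in SHH tumors, 0.219, 0, 9.68 and 2.0 in Myc tumors, 0.0313 to 0.0844 in grafts and 0 to 0.837 in extracranial tumors, against 54.8, 39.3 and 19.2 in brains. SHH CNS tumor 2 overlapped the brains, and Myc CNS tumor 3 stood above the other Myc tumors. Pax6 fell in grafts (-9.58 ± 2.29, adjusted p = 0.00303) and extracranial tumors (-7.22 ± 1.79, adjusted p = 0.00409). Emx2 fell in grafts (-7.51 ± 2.06, adjusted p = 0.00704), where it was at 0.113, 0 and 0.188 CPM against 8.73, 18.8 and 30.0 in brains. Emx2 was also at 12.3 CPM in Myc CNS tumor 1 and at 14.5 and 21.9 in Extracranial tumor 2 and 4, all within the range of the brains, while the remaining Myc and extracranial tumors held 0.209 to 1.33 CPM.

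Eomes, a T-box factor of intermediate cortical progenitors and also of NK and activated T cells, took the opposite course in one group. It was at 7.57, 5.88 and 1.91 CPM in SHH tumors, 1.59, 153, 3.62 and 10.3 in Myc tumors, 222, 174 and 264 in grafts and 10.5, 0.350, 1.55 and 0.374 in extracranial tumors, against 8.69, 34.4 and 14.9 in brains. The 3 grafts were above all brains, and Myc CNS tumor 2 was the only other library over 100 CPM. Grafts were higher than extracranial tumors (6.13 ± 1.57, adjusted p = 0.0426) and than SHH tumors (-5.43 ± 1.72, negative as SHH over graft, adjusted p = 0.0188), while against brain the change of 3.51 ± 1.57 was not called (adjusted p = 0.0701). The sum of 6 T and NK cell markers was 0.155 to 1.18 CPM across SHH tumors, 0.469 to 28.5 across Myc tumors, 42.7 to 98.2 in grafts and 1.60 to 16.8 in extracranial tumors, against 0.136 to 0.175 in brains. It was higher in every graft than in any SHH or extracranial tumor, and the part of these cells in the called differences was not tested. In Myc CNS tumor 2, with 153 CPM of Eomes, the sum was 0.469 CPM. The call against extracranial tumors was lost in 11 of 15 alternatives, among them leaving out any 1 graft.

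Among the genes of the ventral telencephalon, Nkx2-1 split the tumors. This factor specifies the medial ganglionic eminence and hypothalamus (ENSMUSG00000001496, chr12:56531958-56536908 on the minus strand of GRCm38). It was at 9.89, 19 and 0.509 CPM in SHH tumors, 0, 0, 0.0262 and 0.0299 in Myc tumors, 0, 0 and 0.0104 in grafts and 0.0976, 0.0195, 0 and 0.0340 in extracranial tumors, against 32.5, 14.8 and 3.98 in brains. SHH tumors overlapped the brains and stood above all the others, in which Nkx2-1 never passed 0.1 CPM. It fell in grafts, which held 1 read in all (brain over grafts 3174, 95% counting interval 569.6 to 125350, adjusted p = 9.75e-05), Myc tumors (-9.58 ± 1.35, adjusted p = 7.51e-05) and extracranial tumors (-8.96 ± 1.32, adjusted p = 0.0001), and was higher in SHH than in Myc tumors (8.78 ± 1.32, adjusted p = 0.000261). In SHH tumors the change from brain was -0.80 ± 1.01 (adjusted p = 0.68).

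Lhx6 and Lhx8, LIM-homeobox genes of the medial ganglionic eminence, went different ways. Lhx6, which marks cortical interneurons, was at 1.52, 0.987 and 1.10 CPM in SHH tumors, 21.6, 1.36, 9.25 and 58.7 in Myc tumors, 4.02, 2.47 and 2.80 in grafts and 1.90, 18, 0.179 and 1.39 in extracranial tumors, against 56.1, 45.9 and 31.8 in brains. It fell in grafts (-3.85 ± 1.35, adjusted p = 0.026) and extracranial tumors (-3.05 ± 1.17, adjusted p = 0.0408) and was lower in SHH than in Myc tumors (-4.24 ± 1.35, adjusted p = 0.0224), calls lost in 5 of 14, 9 of 15 and 7 of 15 alternatives, among them leaving out any 1 graft or any 1 SHH tumor. Lhx8, which directs cholinergic neurons of the forebrain and is also used in jaw and tooth mesenchyme and the ovary, was at 0.129, 0.235 and 0.0453 CPM in SHH tumors, 56.6, 54.8, 16.3 and 4.89 in Myc tumors, 70.4, 89.2 and 61.9 in grafts and 56.5, 51.2, 0.149 and 151 in extracranial tumors, against 10.3, 6.92 and 3.38 in brains. All 3 grafts and 5 of the 8 Myc and extracranial tumors were at 50 CPM or more, all 3 SHH tumors were under 0.3, and Extracranial tumor 3 was the one other tumor under 1. SHH tumors were lower than Myc tumors (-7.98 ± 1.69, adjusted p = 0.00232) and than grafts (-9.14 ± 1.78, adjusted p = 0.00107). The rise over brain was called in grafts (3.43 ± 1.34, adjusted p = 0.0421) and extracranial tumors (3.24 ± 1.29, adjusted p = 0.0484), but these calls were lost in 9 of 14 and 13 of 15 alternatives, the first without any 1 of the 6 libraries compared. The mesenchyme marker sum was 295 to 662 CPM across SHH tumors, 2728 to 10033 across Myc tumors, 1453 to 1671 in grafts, 3091 to 6993 in extracranial tumors and 326 to 2285 in brains. In Extracranial tumor 3, with 0.149 CPM of Lhx8, it was 4525 CPM, and the part of mesenchyme in the level of Lhx8 was not tested.

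The 4 Dlx genes, homeobox factors of GABAergic forebrain neurons and also of jaw and limb, varied as pairs. Dlx1 and Dlx2 are 9.427 kb apart on chromosome 2, and Dlx5 and Dlx6 9.237 kb apart on chromosome 6. Dlx1 was at 22.9, 289.9 and 73.9 CPM in SHH tumors, 14.2, 34, 97.9 and 0.717 in Myc tumors, 41, 32.2 and 49.6 in grafts and 0.390, 37.5, 0.418 and 31.5 in extracranial tumors, against 266, 114 and 66.7 in brains. Dlx2 was at 9.43, 83.9 and 32.4 CPM in SHH tumors, 11.8, 59.5, 54.3 and 0.359 in Myc tumors, 20.6, 16.6 and 26.8 in grafts and 0.927, 26.1, 0.298 and 23.8 in extracranial tumors, against 47.7, 25.1 and 15.5 in brains. Both were under 1 CPM in Myc CNS tumor 4 and Extracranial tumor 1 and 3 and above 9 CPM in all other libraries, and neither was called against brain in any group.

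Dlx5 and Dlx6 were on in fewer tumors. Dlx5 was at 2.47, 22.8 and 11.1 CPM in SHH tumors, 23.8, 0, 0.0786 and 0.224 in Myc tumors, 0.113, 0.111 and 0.104 in grafts and 1.17, 21.4, 0.209 and 0 in extracranial tumors, against 16.9, 13.8 and 5.93 in brains. Dlx6 was at 4.30, 26.8 and 7.37 CPM in SHH tumors, 23.1, 0, 0.0262 and 0.164 in Myc tumors, 0, 0.0184 and 0 in grafts and 0.293, 27.8, 0 and 0 in extracranial tumors, against 23.1, 13.1 and 6.32 in brains. Outside the SHH tumors, Myc CNS tumor 1 and Extracranial tumor 2 were the only tumors with more than 20 CPM of each, and both genes were under 1.2 CPM in all the rest. Dlx5 (-6.78 ± 2.69, adjusted p = 0.0445) and Dlx6 (1 read in all grafts, brain over grafts 2627 with a 95% counting interval of 471.5 to 103762, adjusted p = 0.0265) fell in grafts, calls that were lost in 8 and 4 of 14 alternatives. Gsx2, a homeobox gene of the lateral ganglionic eminence, was at 0.515, 2.49 and 10.2 CPM in SHH tumors and at most 1.12 in any other tumor, against 1.59, 1.04 and 0.517 in brains, with no call.

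**Figure D3:**
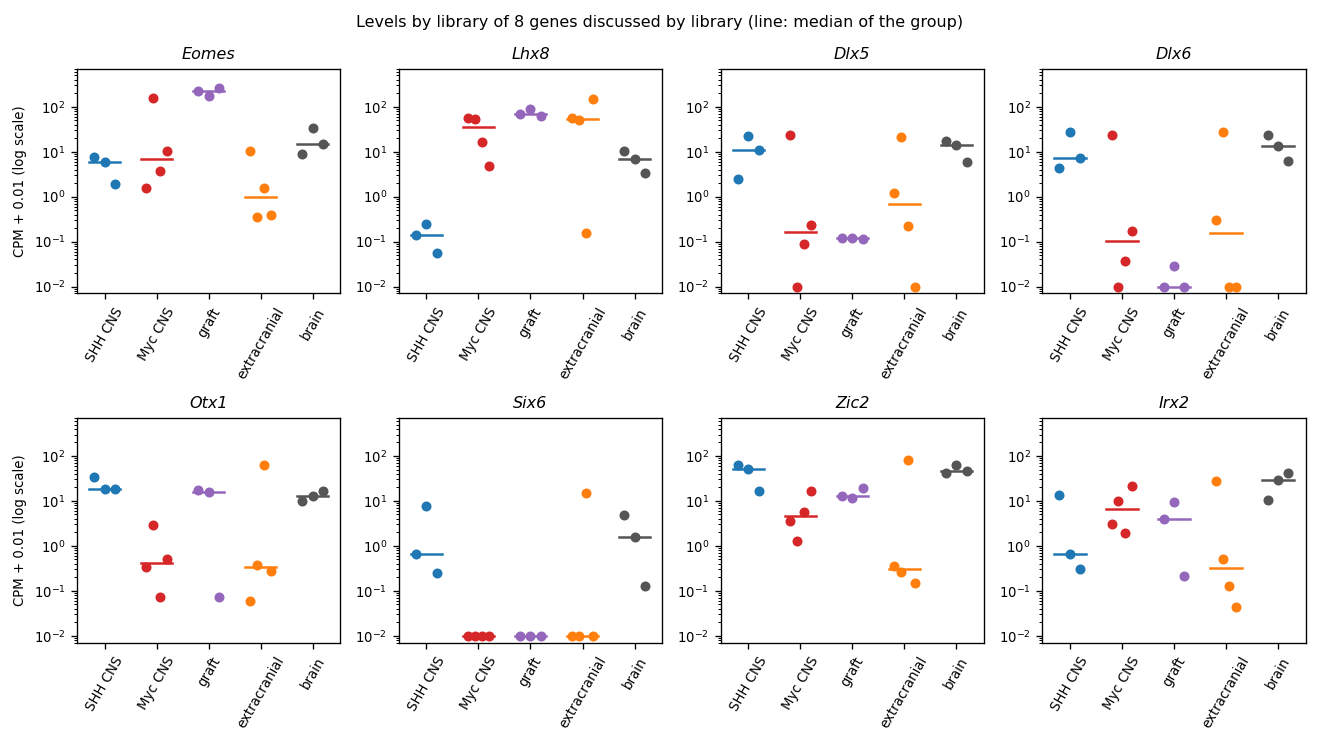
Levels of 8 genes in each library, as CPM + 0.01 on a log scale, by group, with a line at the group's median. In Eomes, Dlx5, Dlx6, Otx1, Six6, Zic2 and Irx2 single Myc or extracranial tumors stand far above the rest of their group, and Lhx8 is under 1 CPM in the SHH tumors and Extracranial tumor 3 alone.

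Otx2 was high in SHH tumors and almost absent from the others. It is a homeobox factor that makes forebrain and midbrain, persists in choroid plexus and eye, and lies at chr14:48657677-48673819 on the minus strand. It was at 94.5, 92 and 199 CPM in SHH tumors, 0.0547, 0, 0.0262 and 0.0448 in Myc tumors, 0, 0.240 and 0.0104 in grafts and 0.0488, 0, 0.776 and 0.0340 in extracranial tumors, against 9.85, 31.4 and 60.3 in brains. All SHH tumors were above all brains, and the other 11 tumors were below 1 CPM. Otx2 fell in Myc tumors (-9.95 ± 1.52, adjusted p = 0.000142), grafts (-8.64 ± 1.58, adjusted p = 0.00046) and extracranial tumors (-7.27 ± 1.30, adjusted p = 0.000445), and was higher in SHH tumors than in Myc tumors (11.87 ± 1.60, adjusted p = 0.000141), grafts (10.56 ± 1.69, adjusted p = 0.00029) and extracranial tumors (9.20 ± 1.40, adjusted p = 0.000269). Against brain the change in SHH tumors was 1.92 ± 1.13 (adjusted p = 0.343). The 6 summed choroid plexus markers were at 1804, 5.71 and 6.05 CPM in SHH CNS tumor 1, 2 and 3. They were at 3.89 to 78.2 CPM across Myc tumors, 136 to 175 in grafts and 17.9 to 82.7 in extracranial tumors. In each library of these 3 groups most of the sum was the marker Aqp1. Grafts held 4825, 9438 and 13879 reads of Aqp1, and 1, 1 and 7 of the marker Ttr. Of the 6 markers, 5 were called lower and 1 higher in grafts than in brain (30.4% and 24.9% of all genes). Healthy brain 1, 2 and 3 had 770, 380 and 8.22 CPM. The part of choroid plexus in the level of Otx2 was not tested.

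The other genes of the anterior neural plate, eye field and diencephalon were less uniform. Otx1, a close relative of Otx2, was at 34, 18.2 and 18.4 CPM in SHH tumors, 0.328, 2.97, 0.0611 and 0.493 in Myc tumors, 17.8, 15.5 and 0.0627 in grafts and 0.0488, 0.370, 62.1 and 0.272 in extracranial tumors, against 9.74, 13.2 and 16.2 in brains. SHH tumors were all above brain, Syngeneic graft 3 was far below the other grafts, and Extracranial tumor 3 held the most of any library. Six3, a repressor needed for the anterior forebrain, was at 27.5, 24.4 and 0.306 CPM in SHH tumors, 0.492, 0.261, 20.1 and 0.269 in Myc tumors, 0.169, 0.276 and 2.10 in grafts and 0.683, 4.51, 0.567 and 0.0340 in extracranial tumors, against 54.4, 29.1 and 28.4 in brains. It fell in grafts (-5.43 ± 2.10, adjusted p = 0.04) and extracranial tumors (-4.66 ± 1.79, adjusted p = 0.0413), calls lost in 8 of 14 and 10 of 15 alternatives, and SHH CNS tumor 3 was far below the other SHH tumors. Six6, of eye and hypothalamus, had no read in any Myc tumor or graft, and 0.644, 7.87 and 0.238 CPM in SHH tumors, 0, 0, 15.2 and 0 in extracranial tumors and 4.85, 1.60 and 0.119 in brains. It had no call, and its mean in extracranial tumors came from 1 library. The summed eye markers were at 0.626 CPM in that library and 3.07 to 4.03 in brains, and the part of eye tissue in the level of Six6 was not tested.

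Lhx9, a LIM-homeobox gene of the thalamus, pallium and gonad, was at 53.4, 56.1 and 7.56 CPM in SHH tumors, 11.5, 2.40, 63.8 and 1.49 in Myc tumors, 0.141, 0.792 and 0.0522 in grafts and 0.0488, 1.28, 0.0597 and 0.0680 in extracranial tumors, against 26.6, 119.8 and 204 in brains. It fell in grafts (-8.48 ± 1.97, adjusted p = 0.00249) and extracranial tumors (-8.20 ± 1.71, adjusted p = 0.00129), and both calls held in every alternative. Myc CNS tumor 3 was within the range of the brains. Rax, which sets up the eye field, was at 0.0470 to 0.0773 CPM across SHH tumors, 0 to 0.620 across Myc tumors, 0.0281 to 0.0627 in grafts and 0 to 0.272 in extracranial tumors, against 1.34, 0.252 and 0.0239 in brains. The brains themselves differed: Healthy brain 1, the library with pituitary transcripts, held the most Rax, Six6 and Nkx2-1 of the 3.

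Of the isthmus and midbrain genes, En2 and Pax5 were higher in every SHH tumor than in any other tumor. En2 and En1 are paired homeobox factors that maintain midbrain and cerebellum, and Pax5 is a partner of them at the isthmus. En2 was at 43.7, 85.2 and 149.5 CPM in SHH tumors, 0.0547, 0.104, 0.454 and 0.120 in Myc tumors, 1.35, 3.48 and 0.219 in grafts and 0.293, 0.0195, 0.0895 and 0 in extracranial tumors, against 1.13, 17 and 28.6 in brains. All SHH tumors were above all brains, and all Myc and extracranial tumors were below them. En2 fell in Myc tumors (-6.22 ± 1.24, adjusted p = 0.000976), extracranial tumors (-7.47 ± 1.36, adjusted p = 0.000488) and grafts (-3.21 ± 1.20, adjusted p = 0.0343; lost in 6 of 14 alternatives), and was higher in SHH than in Myc tumors (8.79 ± 1.37, adjusted p = 0.000325). Its change of 2.57 ± 1.16 in SHH tumors was not called against brain (adjusted p = 0.213).

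En1 was measured throughout. It was at 28.6, 56.5 and 67 CPM in SHH tumors, 4.05, 5.21, 17.9 and 50.7 in Myc tumors, 35.4, 39.5 and 26.5 in grafts and 24.9, 2.28, 8.86 and 26.1 in extracranial tumors, against 1.96, 9.49 and 12.3 in brains. All SHH tumors and all grafts were above all brains, and Myc and extracranial tumors overlapped them. No difference was called: the changes from brain were 2.68 ± 1.0 in SHH tumors (adjusted p = 0.137), 1.30 ± 0.91 in Myc tumors (0.246), 2.09 ± 0.98 in grafts (0.0829) and 0.97 ± 0.90 in extracranial tumors (0.384). En1 is also made in limb ectoderm and in dermal fibroblasts, and the mesenchyme marker sums of the groups are given with Lhx8.

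Pax5 was at 3.97, 32.2 and 3.39 CPM in SHH tumors, 0.0547, 0.104, 0.183 and 0.0149 in Myc tumors, 0.113, 0.276 and 0.167 in grafts and 0.244, 0.292, 0.0597 and 0.102 in extracranial tumors, against 3.63, 18.7 and 20.5 in brains. SHH tumors overlapped the brains and were above every other tumor, none of which reached 0.3 CPM. It fell in Myc tumors (-7.21 ± 1.09, adjusted p = 0.000132), grafts (-6.24 ± 1.17, adjusted p = 0.000551) and extracranial tumors (-6.33 ± 1.04, adjusted p = 0.000236) and was higher in SHH than in Myc tumors (7.10 ± 1.09, adjusted p = 0.000294). Markers of B cells, which also use Pax5, summed to 2.26 to 3.19 CPM across SHH tumors, 5.11 to 23 across Myc tumors, 61.2 to 93 in grafts and 5.54 to 32.5 in extracranial tumors, against 0.732 to 1.51 in brains, and their part in the level of Pax5 was not tested. Fgf8, the signal of the isthmus, was low throughout, at 1.18, 0.917 and 0.159 CPM in SHH tumors and at most 0.221 in the other tumors, against 0.119, 0.126 and 0.0239 in brains. SHH tumors were all above the brains, without a call (3.03 ± 1.11, adjusted p = 0.129), and higher than Myc tumors (4.14 ± 1.18, adjusted p = 0.013). Pax2 and Pax8, the remaining isthmus genes, did not pass 3.83 and 1.58 CPM in any library, and Pax8 fell in Myc tumors (-5.64 ± 1.93, adjusted p = 0.0274; lost in 8 of 15 alternatives) and grafts, which had no read (at least 63.3-fold lower than brain, adjusted p = 0.0164; lost without Syngeneic graft 3).

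**Figure D4:**
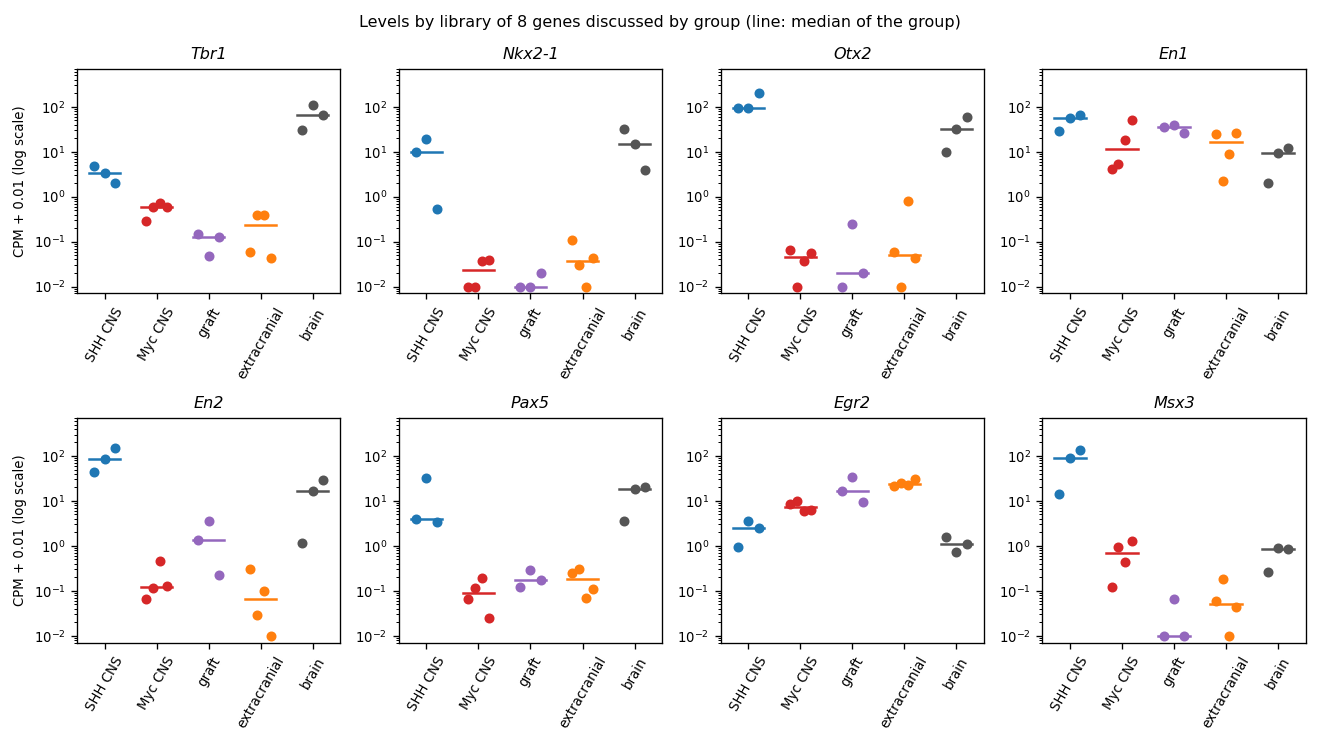
Levels of 8 genes in each library, as CPM + 0.01 on a log scale, by group, with a line at the group's median. Otx2, En2, Pax5, Nkx2-1 and Msx3 separate SHH tumors from the other tumors without overlap, Tbr1 is lower than brain in every tumor, and Egr2 is higher than brain in every Myc, graft and extracranial library.

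Of the hindbrain genes, Egr2 was higher in 3 groups and Gbx2 varied by library. Egr2 (Krox20), a zinc finger factor of rhombomeres, Schwann cells and macrophages, was at 0.927, 3.64 and 2.55 CPM in SHH tumors, 8.64, 9.70, 5.92 and 6.25 in Myc tumors, 16.8, 34.9 and 9.61 in grafts and 21.2, 25.1, 23.1 and 30.2 in extracranial tumors, against 1.54, 0.738 and 1.07 in brains. Every Myc, graft and extracranial library was above every brain. It rose in Myc tumors (2.77 ± 0.52, adjusted p = 0.000645), grafts (4.19 ± 0.57, adjusted p = 5.01e-05) and extracranial tumors (4.48 ± 0.57, adjusted p = 3.16e-05), with calls that held in every alternative, and was lower in SHH than in Myc tumors (-1.68 ± 0.50, adjusted p = 0.015; lost in 5 of 15, among them without SHH CNS tumor 1). The 6 summed macrophage markers were higher in every tumor than in any brain. They were at 207 to 384 CPM across SHH tumors, 1037 to 3424 across Myc tumors, 3736 to 7352 in grafts and 1591 to 5943 in extracranial tumors, against 38.5 to 52.6 in brains. Both Egr2 and this sum were higher in every Myc, graft and extracranial library than in any SHH tumor or brain. Within each tumor group the order of the libraries differed between the 2, and 3 or 4 libraries are too few to compare orders. The part of macrophages in the rise of Egr2 was not tested. Gbx2, a homeobox factor of the anterior hindbrain, was at 6.26, 5.81 and 0.419 CPM in SHH tumors, 8.20, 21.7, 0.183 and 0.0149 in Myc tumors, 8.95, 3.35 and 0.115 in grafts and 0.390, 4.05, 0.776 and 0.204 in extracranial tumors, against 8.93, 9.14 and 1.92 in brains, with no call. The highest library was Myc CNS tumor 2.

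Lmx1a and Lmx1b, LIM-homeobox genes of the roof plate, floor plate and midbrain dopamine neurons, parted. Lmx1a was at 4.77, 10.4 and 4.98 CPM in SHH tumors, 0.164, 0.0521, 0.0436 and 0 in Myc tumors, 0, 0 and 0.0104 in grafts and 0.0976, 7.73, 0.0298 and 0.0340 in extracranial tumors, against 18.8, 7.46 and 1.05 in brains. It fell in Myc tumors (-7.40 ± 1.92, adjusted p = 0.00557) and in grafts, which held 1 read (brain over grafts 1687, 95% counting interval 303 to 66624, adjusted p = 0.0035), was higher in SHH than in Myc tumors (6.96 ± 1.90, adjusted p = 0.00995), and reached the level of brain in Extracranial tumor 2. Lmx1b was at 0.695, 0.306 and 0.328 CPM in SHH tumors, 1.31, 6.52, 1.89 and 0.986 in Myc tumors, 4.33, 6.23 and 3.34 in grafts and 4.0, 1.28, 0.746 and 0.748 in extracranial tumors, against 16.4, 8.64 and 2.34 in brains. It fell in SHH tumors (-4.36 ± 0.97, adjusted p = 0.0255) and extracranial tumors (-2.43 ± 0.80, adjusted p = 0.0205) and was lower in SHH than in Myc tumors (-2.59 ± 0.88, adjusted p = 0.0295), calls lost in 7 of 14, 4 of 15 and 4 of 15 alternatives. Of single libraries, SHH CNS tumor 2, SHH CNS tumor 3 and any 1 brain ended the first, Healthy brain 1 the second, and SHH CNS tumor 2, SHH CNS tumor 3 and Myc CNS tumor 2 the third.

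In the dorsal neural tube group, Msx3 was the single member that rose in SHH tumors over brain. It is a homeobox gene of the dorsal spinal cord and hindbrain (chr7:140046157-140049089 on the minus strand). It was at 14.5, 88.5 and 138 CPM in SHH tumors, 0.109, 0.939, 0.428 and 1.30 in Myc tumors, 0, 0.0553 and 0 in grafts and 0.0488, 0.175, 0 and 0.0340 in extracranial tumors, against 0.254, 0.864 and 0.859 in brains. Each SHH tumor was above every other library, and SHH CNS tumor 1 was the lowest of the 3. Msx3 rose in SHH tumors (6.92 ± 1.27, adjusted p = 0.0123) and was higher there than in Myc tumors (6.83 ± 1.11, adjusted p = 0.000443), grafts (12.01 ± 1.62, adjusted p = 9.86e-05) and extracranial tumors (10.08 ± 1.30, adjusted p = 9.22e-05). It fell in grafts, which held 3 reads (brain over grafts 40.8, 95% counting interval 13.9 to 198, adjusted p = 0.0059), and in extracranial tumors (-3.16 ± 1.07, adjusted p = 0.0236; lost with limma voom and without Extracranial tumor 4, Healthy brain 2 or Healthy brain 3). Fitted folds against groups with so few reads depend on the prior count and are not bounds. The call against brain was lost without SHH CNS tumor 3, Healthy brain 2 or Healthy brain 3, where the adjusted p reached 0.0693.

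Pax7 and Pax3, paired box factors of the dorsal neural tube and of muscle precursors, differed in the grafts. Pax7 was at 1.06, 0.353 and 0.0340 CPM in SHH tumors, 0.273, 0, 0.0262 and 0.0149 in Myc tumors, 0, 0 and 0.0104 in grafts and 0.0976, 0.0195, 0 and 0 in extracranial tumors, against 2.71, 16.9 and 44.6 in brains. All tumors were below all brains, and it fell in Myc tumors (-8.42 ± 1.53, adjusted p = 0.000513), grafts with 1 read (brain over grafts 3972, 95% counting interval 713 to 156869, adjusted p = 0.000332), extracranial tumors with 3 reads (962, 329 to 4664, adjusted p = 0.00029) and SHH tumors (-5.49 ± 1.47, adjusted p = 0.0498), the last at the threshold and lost in 11 of 14 alternatives. Pax3 was at 23.4, 11.3 and 0.668 CPM in SHH tumors, 1.59, 1.51, 3.14 and 0.209 in Myc tumors, 9.20, 12.7 and 16 in grafts and 0.0488, 0.272, 0.0597 and 0.0680 in extracranial tumors, against 0.468, 4.88 and 10.2 in brains. The 3 grafts were above every Myc and extracranial tumor. Pax3 fell in extracranial tumors (-5.41 ± 1.24, adjusted p = 0.00244) and was higher in grafts than in extracranial tumors (6.69 ± 1.30, adjusted p = 0.0209) and in SHH than in Myc tumors (2.86 ± 1.09, adjusted p = 0.048; lost in 11 of 15 alternatives).

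Zic1 and Zic2, zinc finger factors of the dorsal neural tube and cerebellum, stayed measurable in most tumors. Zic1 was at 298, 210.0 and 447 CPM in SHH tumors, 56.7, 95.7, 15.9 and 113 in Myc tumors, 27.4, 24.3 and 36.9 in grafts and 22.3, 0.0973, 34.9 and 0.170 in extracranial tumors, against 204, 250.2 and 178 in brains. All Myc, graft and extracranial libraries were below all brains, Extracranial tumor 2 and 4 had almost none, and the fall was called in extracranial tumors (-3.88 ± 1.29, adjusted p = 0.0209), a call lost with the compared groups only and without the 5 libraries with transcripts of other tissue (adjusted p up to 0.104). Zic1 overlaps Zic4 on the opposite strand, so reads of the 2 genes may not be fully separated. Zic2 was at 63.3, 51 and 16.6 CPM in SHH tumors, 3.50, 1.25, 5.74 and 16.5 in Myc tumors, 12.6, 11.8 and 19.7 in grafts and 0.341, 0.253, 79.9 and 0.136 in extracranial tumors, against 42.5, 63.5 and 47.3 in brains. It had no call, and Extracranial tumor 3 held the most of any library while the other extracranial tumors were below 0.4 CPM.

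The Iroquois genes, homeobox factors with early roles in the neural plate and its regions, varied within groups. Irx1 was at 6.77, 0.376 and 2.62 CPM in SHH tumors, 0.109, 0.104, 0.471 and 0.135 in Myc tumors, 0.0281, 0.0553 and 0.0731 in grafts and 7.12, 0.156, 0.149 and 0.170 in extracranial tumors, against 5.49, 15.1 and 26.8 in brains. It fell in Myc tumors (-6.15 ± 1.48, adjusted p = 0.00349) and grafts (-8.12 ± 1.86, adjusted p = 0.00224), and was higher in SHH than in Myc tumors (3.88 ± 1.36, adjusted p = 0.0342; lost in 8 of 15 alternatives). Irx2, 665 kb from Irx1, was at 13.8, 0.658 and 0.294 CPM in SHH tumors, 3.06, 10.1, 1.88 and 21.7 in Myc tumors, 3.94, 9.53 and 0.198 in grafts and 27.4, 0.506, 0.119 and 0.0340 in extracranial tumors, against 10.7, 28.5 and 41.1 in brains. Both genes peaked, among extracranial tumors, in Extracranial tumor 1. Irx3 was at 11, 12.3 and 38.5 CPM in SHH tumors, 12.1, 1.36, 1.69 and 4.20 in Myc tumors, 0.928, 2.76 and 1.18 in grafts and 10.9, 17.8, 1.04 and 2.18 in extracranial tumors, against 4.42, 8.66 and 11.1 in brains. Neither Irx2 nor Irx3 was called against brain, but Irx3 was higher in SHH tumors than in grafts (3.66 ± 1.10, adjusted p = 0.0141).

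Set side by side, 9 members were lower than brain in Myc tumors, grafts and extracranial tumors alike: Emx1, Lhx2, Tbr1, Fezf2, Nkx2-1, Otx2, En2, Pax5 and Pax7. Of all genes tested, 20.1% were called lower in the same 3 comparisons, so the count of 9 in 39 is near the background. Of these 9, Emx1, Tbr1 and Pax7 were also called lower in SHH tumors, and 1.56% of all genes were called lower in all 4 comparisons. Egr2 was the one member called higher in the 3 groups, as were 17.6% of all genes. The 14 members called in none of the 4 comparisons with brain were Eomes, Dlx1, Dlx2, Gsx2, Otx1, Six6, Rax, En1, Pax2, Fgf8, Gbx2, Zic2, Irx2 and Irx3. As the comparisons share their brain libraries, this overlap is a description.

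Between the subtypes of CNS tumor, members of each region were called. SHH tumors were higher than Myc tumors in 12 members and lower in 4 (2 without any 1 SHH tumor), where 21.9% of all genes were called higher and 19.0% lower, so that the 16 called members are near the share of all genes called in either direction. The median log2 fold change was 2.18 over the 39 genes and -0.00 over all genes. The 12 were 5 of the forebrain (Emx1, Tbr1, Fezf2, Nkx2-1 and Otx2), 4 of the midbrain and hindbrain (En2, Pax5, Fgf8 and Lmx1a) and 3 of the dorsal neural tube (Pax3, Msx3 and Irx1). The 4 lower in SHH tumors were Lhx6, Lhx8, Egr2 and Lmx1b. In 14 members the SHH libraries all lay above the Myc libraries, and in 3 all below, as for 23.1% and 19.8% of all genes. Of the 16 calls, those of Tbr1, Fezf2, Nkx2-1, Lhx8, Otx2, En2, Pax5, Lmx1a and Msx3 held in every alternative.

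Between Myc CNS tumors and extracranial tumors no member was called higher or lower by edgeR, where 0.0186% of all genes were called higher and 0% lower, and 6 members were higher and 4 lower at an unadjusted p under 0.05. DESeq2 called 4 higher and 3 lower, where it called 758 and 491 of 20256 genes. Limma called 0 members and 0 of all genes. The median log2 fold change was 0.40 over the 39 genes and -0.04 over all genes. The libraries of the groups did not overlap for 1 member that was higher in Myc tumors and 1 that was lower (2.2% and 2.24% of all genes). The largest ratio of change to SE was that of Egr2, lower in Myc tumors (-1.71 ± 0.45, adjusted p = 0.131), and Lhx9 had the next (5.64 ± 1.51, adjusted p = 0.135, higher in Myc tumors).

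Grafts and extracranial tumors differed in a pair of members. Pax3 and Eomes were called higher in grafts and none lower, where 2.16% of all genes were called higher and 2.62% lower, and 4 members were higher and 9 lower at an unadjusted p under 0.05. DESeq2 called 4 higher and 6 lower, where it called 1504 and 2229 of 21088 genes. The median log2 fold change was -0.62 over the 39 genes and -0.13 over all genes. The grafts lay above all extracranial tumors in 3 members and below them in 3 (11.9% and 10.3% of all genes). Both calls were lost without any 1 of the grafts, Eomes also without Extracranial tumor 2, 3 or 4, and 2 members were called lower without Extracranial tumor 1 or 3. Over all genes, 54, 44 and 123 were called higher without Syngeneic graft 1, 2 and 3, against 465 with all libraries. Without Extracranial tumor 1 and 3, 1116 and 728 were called lower. Lmx1a (-8.16 ± 2.37, adjusted p = 0.0594) and En2 (4.26 ± 1.25, adjusted p = 0.0613) came nearest among the uncalled.

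The other pairs of tumor groups were tested in the same edgeR model, without the alternatives. SHH tumors were higher than grafts in 17 members and lower in 4 (25.8% and 20.4% of all genes), and higher than extracranial tumors in 15 and lower in 2 (19.7% and 18.6%). Myc tumors were higher than grafts in Msx3 alone, where 2.88% of all genes were called higher and 3.12% lower. Lhx8 and Egr2 were lower in SHH tumors than in grafts and than in extracranial tumors.

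Libraries of one group could hold very different sets of patterning genes. The range of log2(CPM + 1) within a group passed 3 for 8 of the 39 genes in SHH tumors, 13 in Myc tumors, 3 in grafts, 16 in extracranial tumors and 3 in brains, over 3, 4, 3, 4 and 3 libraries. Myc CNS tumor 1 held Dlx5, Dlx6 and Emx2, Myc CNS tumor 2 held Eomes and Gbx2, Myc CNS tumor 3 held Lhx9 and Six3, and Myc CNS tumor 4 held Lhx6 and En1. Extracranial tumor 1 held Irx1 and Irx2, Extracranial tumor 2 held Dlx5, Dlx6 and Lmx1a, Extracranial tumor 3 held Otx1, Zic2 and Six6, and Extracranial tumor 4 held Lhx8 at 151 CPM, the most of any library. Markers of other tissue also stood out in these groups. Pituitary markers were at 192 CPM in Myc CNS tumor 1, and muscle markers at 101 and 62.1 CPM in Extracranial tumor 1 and 2, whose organ is not given. Healthy brain 1 had the most muscle markers of any library, at 184 CPM. The part of such tissue in these levels was not tested.

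Ranked over the 39 genes, SHH tumors, grafts and brains were most like their own group, and most Myc and extracranial tumors were not. The median Spearman's rho between libraries of a group was 0.803 in SHH tumors, 0.674 in Myc tumors, 0.903 in grafts, 0.492 in extracranial tumors and 0.776 in brains, beside 0.942, 0.920, 0.976, 0.892 and 0.966 over all genes at 1 CPM. These values describe libraries across genes, which are not independent of each other. Between groups the median was 0.691 for Myc tumors and grafts, 0.620 for grafts and extracranial tumors, 0.572 for Myc and extracranial tumors, and 0.283 for SHH and Myc tumors. With brains the median over the 39 genes was 0.395 for SHH tumors, 0.416 for Myc tumors, 0.279 for grafts and 0.220 for extracranial tumors. Over all genes at 1 CPM these were 0.929, 0.704, 0.624 and 0.677. The library most like Myc CNS tumor 2 was Syngeneic graft 1, at 0.895, and the library most like Myc CNS tumor 1 was Extracranial tumor 2, at 0.751, while every SHH tumor and every brain was most like another of its own group.

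**Figure D5:**
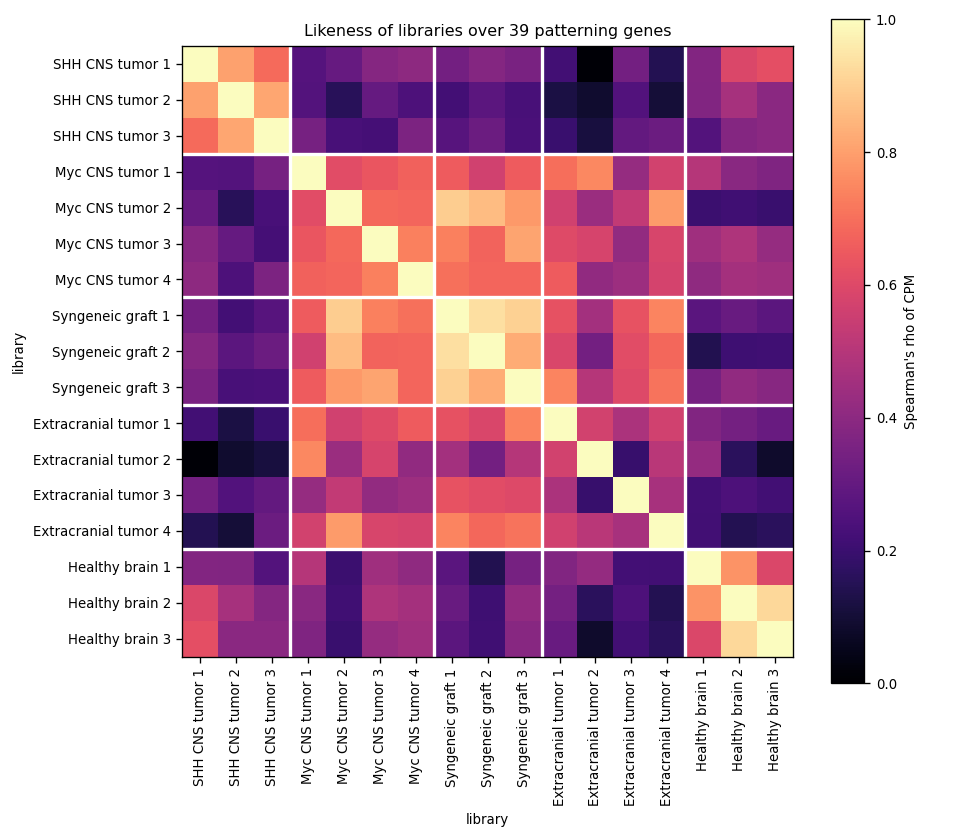
Spearman's rho of CPM over the 39 genes between each pair of the 17 libraries, ordered by group on both axes. Each SHH tumor and each brain is most like another of its own group. Still, SHH CNS tumor 1 and Healthy brain 3 (rho of 0.621) are more alike than Healthy brain 1 and 3 (0.591). Grafts are alike among themselves and with Myc CNS tumor 2, while Extracranial tumor 2 and 3 are little alike (rho of 0.193).

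Of 47 further patterning genes, 44 were tested. In SHH tumors against brain 1 was higher and 4 lower (2.44% and 1.94% of all genes), in Myc tumors 1 and 21 (25.3% and 26.8%), in grafts 2 and 31 (24.9% and 30.4%), and in extracranial tumors 1 and 24 (26.1% and 26.1%). Gsx1, a homeobox gene of ventral progenitors, rose in SHH tumors (4.12 ± 0.92, adjusted p = 0.0257), with 6.08, 36 and 34.5 CPM in SHH tumors against 1.86, 1.36 and 1.19 in brains. Without SHH CNS tumor 2, SHH CNS tumor 3 or any 1 brain, 0 of these genes was called higher in SHH tumors. Gsx1 fell in Myc tumors (-6.99 ± 1.07, adjusted p = 0.000147), grafts (-7.72 ± 1.24, adjusted p = 0.000174) and extracranial tumors (-6.57 ± 1.05, adjusted p = 0.000186). It had at most 2 reads in any library of these groups. Barhl2, a homeobox gene of diencephalon and spinal cord, fell in all 4 groups, at 0.306 to 2.83 CPM across SHH tumors, 0.0149 to 0.0611 across Myc tumors, 0 to 0.0184 in grafts and 0 in all extracranial tumors, against 6.99 to 22.1 in brains. SHH tumors were higher than Myc tumors in 20 of these genes and lower in 1 (21.9% and 19.0% of all genes), led by Gsx1 (11.11 ± 1.18, adjusted p = 3.01e-05) and Dbx1 (9.79 ± 1.59, adjusted p = 0.000436). Between Myc and extracranial tumors none was called by edgeR, and in grafts Vax1, a homeobox gene of the ventral forebrain, was higher than in extracranial tumors (9.94 ± 2.21, adjusted p = 0.0301) while Meis1 (-4.08 ± 1.07, adjusted p = 0.0449) and Nr2f1 (-3.15 ± 0.84, adjusted p = 0.0469) were lower. Dbx1 had at most 2 reads in any Myc tumor, and Vax1 at most 1 in any extracranial tumor. The fitted folds of Gsx1, Dbx1 and Vax1 against such groups depend on the prior count and are not bounds.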

How the data were processed

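RNA was sequenced from 17 bulk libraries. Reads were aligned with STAR 2.5.3a to mm10, per the submitters' processing notes. The counting tool, its strand setting and the annotation release are not given in the sources used here. The authors deposited raw counts per gene, 1 file per library with 50600 genes. Because strand handling is unknown, reads of a member cannot be told apart from those of an overlapping gene on the other strand, such as Dlx1as, Dlx6os1, Emx2os, Otx2os1, Pax6os1, Six3os1 and Zic4. Gene IDs were matched to GENCODE M21 (45737 with version, 50376 without) for lengths and positions.

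Libraries were grouped by their titles. Counts were fitted with edgeR 4.0.16 in R 4.3.3 in 1 model with all 17 libraries: filterByExpr with a minimum count of 10 kept 21494 genes and 99.96% of counts, library sizes were scaled by TMM, and the quasi-likelihood test was adjusted by Benjamini-Hochberg over all genes tested, with a threshold of 0.05. The series' design text counts the 14 tumors as separate ones and the 3 brains as biological replicates. The labels do not say whether tumors share an animal or grafts a parent tumor, so p-values measure the spread between these libraries. Floors of 3 counts and 95% intervals cover counting error only. Spearman's rho and ranges used log2(CPM + 1). The tests were checked on simulated data.

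As alternatives, DESeq2 1.42.0 and limma 3.58.1 (voom, weighted by library quality) replaced the test, RLE size factors replaced TMM, the filter was dropped, the model was limited to the groups compared, the library number was added as a replicate block, each library was left out in turn, and libraries with transcripts of other tissue were left out together. Library numbers in the titles did not pair libraries across groups (correlation of deviations -0.18 to 0.083). The 39 members, the marker lists and the further patterning genes were chosen with earlier results of these data known. Any member could be named, and of the further patterning genes up to 4 called genes with the smallest adjusted p per comparison. Results of some of the further genes are not reported here. Tables and figures used Python 3.11.15, pandas 2.3.3, numpy 2.4.6, scipy 1.17.1 and matplotlib 3.10.9.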

Additional observations from a re-analysis of the deposited data

Results flagged for a closer look

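Within the groups of 4 libraries, 77 sets of values (a member in Myc or in extracranial tumors) were examined for a library far from the others, and 25 had one, where chance gives about 1 in 20 for normally spread values. CPM values are skewed, so this share is not read against that rate. In Myc CNS tumor 1 these were Emx2 at 12.3 CPM, Dlx5 at 23.8 and Dlx6 at 23.1. In Myc CNS tumor 2 they were Eomes at 153 CPM, Otx1 at 2.97 and Lmx1b at 6.52. In Myc CNS tumor 3 they were Six3 at 20.1 CPM, Lhx9 at 63.8 and Pax2 at 2.71. In Extracranial tumor 1 they were Eomes at 10.5 CPM, Lmx1b at 4.0, Irx1 at 7.12 and Irx2 at 27.4. Extracranial tumor 2 had 8: Lhx2 at 3.04 CPM, Dlx5 at 21.4, Dlx6 at 27.8, Lhx6 at 18, Six3 at 4.51, Lhx9 at 1.28, Gbx2 at 4.05 and Lmx1a at 7.73. In Extracranial tumor 3 they were Otx1 at 62.1 CPM, Six6 at 15.2 and Zic2 at 79.9, and in Extracranial tumor 4 Gsx2 at 1.12. Each stood above the rest of its group. Dlx5 and Dlx6, neighbours on chromosome 6, were high in the same library in both groups.

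In 10 cases every library of one tumor group lay above all brains and every library of another below them. As this position chose the cases, the log2 differences (± SE, from the same edgeR model) are given as a description, with no test. For SHH over Myc tumors the log2 difference was 4.66 ± 2.0 for Otx1, 11.87 ± 1.60 for Otx2 and 8.79 ± 1.37 for En2. For SHH tumors over grafts it was 10.56 ± 1.69 for Otx2 and 12.01 ± 1.62 for Msx3, and in the other direction -5.43 ± 1.72 for Eomes and -9.14 ± 1.78 for Lhx8. For SHH over extracranial tumors it was 9.20 ± 1.40 for Otx2, 10.05 ± 1.47 for En2 and 10.08 ± 1.30 for Msx3.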

How the results depend on the processing

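Counts of called members moved most where few were called. In brackets are the counts over all genes tested in the same setting. For SHH tumors against brain, DESeq2 gave 2 higher and 8 lower (1592 and 1283 of 21088), and limma voom 6 and 12 (3248 and 4250 of 21494). The lower count was 2 with every gene with a count (266 of 36988) and 1 without Healthy brain 1 and SHH CNS tumor 1 (170 of 22107). It was 2 without the 5 libraries with transcripts of other tissue (155 of 22194). Leaving out 1 library gave 0 to 1 higher and 0 to 2 lower (27 to 513 and 35 to 308). With all libraries 524 and 416 of all genes were called. For Myc tumors against brain, limma voom gave 20 lower (7463 of 21494). Leaving out 1 library gave 1 higher and 11 to 15 lower (3967 to 5328 and 4793 to 5602). For grafts against brain, the higher count was 4 with DESeq2 (5695 of 21088), limma voom (7776 of 21494) or the compared groups only (6648 of 21126). It was 1 with every gene with a count (4990 of 36988), without Healthy brain 1 and SHH CNS tumor 1 (4951 of 22107), or without the 5 libraries (4911 of 22194). Leaving out 1 library gave 1 higher and 15 to 18 lower (4308 to 4820 and 5544 to 5984). For extracranial tumors against brain, the higher count was 1 with limma voom (6325 of 21494), RLE size factors (5220 of 21494) and no filter on low counts (4854 of 36988). It was also 1 with the compared groups only (4535 of 19688) and with both sets of libraries left out (4929 of 22107 and 4312 of 22194). Leaving out 1 library gave 1 to 2 higher and 14 to 21 lower (4172 to 5458 and 4736 to 5689).

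For SHH against Myc tumors, limma voom gave 19 higher and 2 lower (5396 and 4716 of 21494). The lower count was 2 under both sets of libraries left out (2988 of 22107 and 2750 of 22194). Leaving out 1 library gave 10 to 14 higher and 2 to 4 lower (3823 to 4402 and 2923 to 3712). For Myc against extracranial tumors DESeq2 gave 4 higher and 3 lower (758 and 491 of 20256), and leaving out any 1 library gave 0 of both (0 to 71 and 0 to 23). For grafts against extracranial tumors, DESeq2 gave 4 higher and 6 lower (1504 and 2229 of 21088), and limma voom 1 lower (1230 of 21494). The higher count was 1 with every gene with a count (296 of 36988), the compared groups only (71 of 17156), or without Healthy brain 1 and SHH CNS tumor 1 (340 of 22107). Leaving out 1 library gave 0 to 3 higher and 0 to 2 lower (44 to 854 and 10 to 1116).

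With library number as a replicate block, the lower count of SHH tumors against brain was 2 (357 of 21494). The higher count of extracranial tumors against brain was 1 (5007), and that of grafts against extracranial tumors 1 (269). The other counts stayed within 1.5 times, such as 11 lower in Myc tumors (5425) and 19 lower in grafts against brain (6487). The numbers did not pair the libraries: no correlation of deviations passed 0.1, and 6 of 22 libraries in these checks were most alike to the one with their own number.

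The median log2 fold change of a region turned sign and moved by more than the median SE of its genes in 5 cases, and the cause was not tested. Smaller shifts also turned the sign of medians near 0. For midbrain and hindbrain genes it was 0.96 in SHH tumors against brain with limma voom, and with edgeR it was -0.95 to 0.12 when 1 library was left out, above 0 without SHH CNS tumor 1, SHH CNS tumor 3 or Healthy brain 1. In Myc against extracranial tumors it was -1.28 with Myc CNS tumor 1 and 2 only, whose source files carry numbers of the same series as the extracranial ones, and -1.51 without Myc CNS tumor 3, the range over left-out libraries being -1.51 to 0.58. For dorsal neural tube genes in grafts against extracranial tumors it was 0.29 with limma voom and 0.41 without the 5 libraries. With 3 or 4 libraries in a group and levels that differ from library to library, a member missing the threshold is not shown to be alike between groups, and counts of 0 to 3 reads limit the folds of the genes nearest to 0.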
